A study of Mus musculus with 9 samples.

Results

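The Dlk1-Meg3 cluster is an imprinted domain on the distal part of mouse chromosome 12, taken here as 7 genes (Begain, Dlk1, Meg3, Rtl1, Rian, Mirg and Dio3) together with every transcribed locus between the start of Dlk1 and the end of Mirg. The genes were looked for among the 54913 loci used by position against the GRCm38 annotation, and by strand for those loci that had one, whatever name the table printed. Of the 7 genes, 5 (Dlk1, Meg3, Rian, Mirg and Dio3) had a locus of their own, that of Dio3 without a strand. The window from Dlk1 to Mirg held 70 loci, of which 11 were on the plus strand, 2 on the minus strand and 57 had no strand, so that those 57 cannot be told apart from antisense transcripts. Of the loci without strand, 22 had an interval of their own and 35 shared their printed interval with another locus.

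RNA of 9 mouse libraries was compared, 3 each of spermatogonial stem cells (SSC), induced pluripotent stem cells derived from SSC (SSCiPSC) and induced pluripotent stem cells derived from fetal fibroblasts (fiPSC). All of them carried the Gt(ROSA)26Sortm1(rtTA*M2)Jae and Col1a1tm3(tetO-Pou5f1,-Sox2,-Klf4,-Myc)Jae alleles, by which doxycycline turns on the reprogramming factors Oct4, Sox2, Klf4 and c-Myc. SSC were testis cells of pups in their first postnatal week, enriched for the surface receptor Gfra1 on magnetic columns and not cultured, so other cells of the testis can remain in them. SSCiPSC and fiPSC were clonal lines grown on feeder cells with LIF and sorted for SSEA1, the fibroblasts having come from male fetuses at mid-gestation. The labels list doxycycline in their medium, the study's methods describe its stepwise withdrawal, and both give different passages. Libraries of the original fibroblasts were not analysed here. Values are FPKM, fragment counts divided by transcript length and by the fragment total of the library, which allow levels to be compared between genes. In units of 1e6 fragments, the depth of the SSC libraries (replicates 1 to 3) was 1.77, 4.62 and 1.38, that of the SSCiPSC libraries 15.8, 13.7 and 15.0 and that of the fiPSC libraries 13.3, 17.6 and 15.4. Depth therefore differed between SSC and iPSC in the same way as cell type, and their effects cannot be told apart.

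In an imprinted domain the copy of a gene inherited from one parent is active and the other is silent. In this cluster Dlk1, Rtl1 and Dio3 are transcribed mainly from the paternal chromosome, while the noncoding RNAs Meg3, Rian and Mirg, read in the same direction along one long stretch, come from the maternal chromosome. The choice depends on a control region between Dlk1 and Meg3 that is methylated on the paternal copy, a mark laid down in male germ cells, and the maternal RNAs of the cluster are known to be silenced in some mouse iPSC lines. RNA abundance does not separate the parental copies, and methylation of the control region was not analysed here.

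The promoters of Dlk1 and Meg3 are shown because these neighbours, read in the same direction, lie on either side of the control region. Both windows are the 250 bases before a RefSeq start on the plus strand (build GRCm38.p6), chr12:109452573-109452822 for Dlk1 and chr12:109540746-109540995 for Meg3. Capitals mark 3 motifs searched on both strands, TGACGTCA (the cAMP response element), TATAAA (the TATA box) and TGCCGC (the letters bound by the imprint protector Zfp57 when methylated, which read GCGGCA on the other strand).
Dlk1: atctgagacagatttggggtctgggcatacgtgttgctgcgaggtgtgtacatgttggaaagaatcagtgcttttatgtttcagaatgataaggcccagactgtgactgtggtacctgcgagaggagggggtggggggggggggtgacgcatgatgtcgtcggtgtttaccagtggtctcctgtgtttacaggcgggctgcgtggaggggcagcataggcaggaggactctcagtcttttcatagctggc
Meg3: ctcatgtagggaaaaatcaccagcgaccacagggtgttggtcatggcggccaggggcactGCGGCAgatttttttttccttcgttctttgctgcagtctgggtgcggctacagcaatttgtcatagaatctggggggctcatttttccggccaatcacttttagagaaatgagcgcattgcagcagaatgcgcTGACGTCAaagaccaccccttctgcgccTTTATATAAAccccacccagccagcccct
The Meg3 window held TGACGTCA starting 57 bases before the start, TATAAA starting 25 bases before it with an overlapping match on the other strand, and a match to TGCCGC. None of the 3 motifs occurred in the Dlk1 window. Among 32851 RefSeq windows of the same length, 1.55% held TGACGTCA, 12.4% held TATAAA and 8.68% held TGCCGC. The windows had 8 (Dlk1) and 10 (Meg3) CpG, against a median of 6 over all windows. A second RefSeq start of Meg3, with the window chr12:109545148-109545397, had none of the 3 motifs and 0 CpG. These matches are descriptions of letters, and binding was not measured.

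Between Dlk1 and the end of Mirg the cluster holds 60 RefSeq microRNA genes, 57 of them on the plus strand, and 23 annotated snoRNAs. The Mirg locus enclosed 23 hairpins, the locus just before it 16 and the Rian locus 3. The libraries measured long host RNA and not mature microRNAs. Of 111 mature names, 18 shared their seed (bases 2 to 8) with another name, over 9 seeds. Printed here, with the seed in capitals, are members of 4 shared seeds and the microRNAs of a locus that was listed at 0 in all SSC libraries, since the loci that enclose them were higher in the iPSC than in SSC.
Seed GGUAGAC, from the locus before Mirg:
miR-379-5p: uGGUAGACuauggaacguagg
miR-1193-5p: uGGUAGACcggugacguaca
Seed AUGUAAC, from the same locus:
miR-379-3p: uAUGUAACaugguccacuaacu
miR-411-3p: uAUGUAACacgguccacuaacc
Seed GGUUGUC, from the locus before Mirg (miR-494-5p) and from Mirg (miR-410-5p):
miR-494-5p: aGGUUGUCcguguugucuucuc
miR-410-5p: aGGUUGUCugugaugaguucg
Seed UGGAUAU, from the Mirg locus:
miR-376c-5p: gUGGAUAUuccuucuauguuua
miR-376b-5p: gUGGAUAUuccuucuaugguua
From the locus at 0 in SSC, with unlike seeds:
miR-434-5p: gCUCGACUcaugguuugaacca
miR-434-3p: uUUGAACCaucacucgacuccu
miR-432: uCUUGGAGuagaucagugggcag

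Against SSC, the iPSC had lower Dlk1 before the control region and higher Rian and Mirg past it. Dlk1 was 88.2-fold lower in SSCiPSC than in SSC (52.5-fold without SSC replicate 3), Mirg was 5.96-fold higher and Rian 3.22-fold higher (ratios of mean FPKM, n = 3 libraries each), and the difference of Meg3 did not pass the test. The fiPSC, which never were germ cells, gave the same calls against SSC, although both comparisons share the SSC libraries and are not independent. Between fiPSC and SSCiPSC none of the cluster's tested genes or loci passed the threshold, where only 0.0678% of all loci tested did.

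Dlk1 encodes a transmembrane protein related to the Delta ligands of Notch and keeps precursor cells such as preadipocytes from differentiating. Its locus, chr12:109452841-109460589, had 13.2, 15.6 and 43.8 FPKM in SSC replicates 1, 2 and 3, then 0.207, 0.237 and 0.379 in SSCiPSC, and 0.748, 0.276 and 0.560 in fiPSC. All SSC libraries lay above all iPSC libraries, and SSC replicate 3 was the highest of the 9. The log2 difference of FPKM + 1 was -4.11 ± 0.46 (SE) for SSCiPSC against SSC (limma adjusted p = 0.000644) and -3.86 ± 0.46 for fiPSC against SSC (limma adjusted p = 0.000864). Dlk1 passed the filter on low values through SSC libraries alone, and with no filter the adjusted p was 0.000994 and 0.00125. This scale understates the change of a gene near 0, and on the linear scale the mean of SSC was 88.2 times that of SSCiPSC and 45.8 times that of fiPSC, or 52.5 and 27.3 times without SSC replicate 3. Between the iPSC types the means were 0.274 ± 0.0917 in SSCiPSC and 0.528 ± 0.238 in fiPSC (SD, n = 3), with overlapping values (exact permutation test, two-sided, p = 0.2). With 3 libraries against 3, the exact permutation test cannot go below p = 0.1.

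Meg3, a maternally expressed noncoding RNA with growth-restraining activity, had the highest mean of the cluster over the 9 libraries and in SSC and fiPSC, and Rian the highest in SSCiPSC. Its locus, chr12:109544588-109571600, was listed at 33.3, 20.0 and 71.9 FPKM in the SSC replicates, 58.4, 56.3 and 89.4 in SSCiPSC and 57.4, 71.9 and 69.2 in fiPSC. The groups overlapped because SSC replicate 3 reached the range of the iPSC, while SSC replicates 1 and 2 were below all of them. The log2 difference of 0.85 for SSCiPSC against SSC (95% interval -0.25 to 1.95, limma adjusted p = 0.168) and that of 0.84 for fiPSC against SSC (-0.22 to 1.90, adjusted p = 0.158) did not pass. Without SSC replicate 3, they became 1.33 (adjusted p = 0.0151) and 1.32 (adjusted p = 0.00701), without SSC replicate 2 they became 0.43 (adjusted p = 0.396) and 0.42 (adjusted p = 0.349), and under quantile normalization 0.29 (adjusted p = 0.67) and 0.36 (adjusted p = 0.575). A fit with the replicate number as a block also took the SSCiPSC difference past the threshold. The numbers were not taken as pairs. The assembly placed the 5′ end of Meg3 in a separate locus, chr12:109540837-109544349, which starts inside the promoter window printed above. It had 8.64, 4.23 and 12.8 FPKM in SSC, 10.0, 8.89 and 21.0 in SSCiPSC and 13.3, 11.9 and 13.1 in fiPSC, again with overlap of SSC and SSCiPSC and no call (adjusted p = 0.322 and 0.184 against SSC).

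Rian is the host of box C/D snoRNAs. The values of its locus, chr12:109599819-109646510, were 18.8, 14.8 and 32.3 FPKM in the SSC replicates, 61.7, 57.9 and 92.4 in SSCiPSC and 61.2, 61.0 and 64.8 in fiPSC. Every iPSC library lay above every SSC library. The log2 difference was 1.68 ± 0.32 (SE) for SSCiPSC against SSC (limma adjusted p = 0.00517) and 1.53 ± 0.27 for fiPSC against SSC (adjusted p = 0.00412). The next plus-strand locus, chr12:109650415-109664158, which runs over the annotated end of Rian and encloses 6 more snoRNAs, had 9.84, 5.35 and 20.9 FPKM in SSC, 53.9, 36.4 and 69.4 in SSCiPSC and 43.5, 49.0 and 44.2 in fiPSC. It rose with Rian, 4.43-fold in SSCiPSC (adjusted p = 0.00872) and 3.79-fold in fiPSC (adjusted p = 0.00866), or 7.01-fold and 6.0-fold without SSC replicate 3. A further plus-strand locus at chr12:109672962-109694824, with 10 snoRNAs inside, was at 2.32, 1.51 and 4.30 FPKM in SSC, 12.9, 11.3 and 18.7 in SSCiPSC and 13.1, 16.1 and 13.3 in fiPSC. Its groups were apart as well, 5.28-fold (adjusted p = 0.00295) and 5.24-fold (adjusted p = 0.0018) above SSC.

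Mirg is a microRNA host, and miR-410, miR-376b and miR-376c of those printed above lie in its locus. Mirg itself is annotated at chr12:109729764-109749460, so the locus starts before the gene, with miR-376b and miR-376c in that earlier stretch. Its locus, chr12:109721335-109749373, had 5.98, 3.19 and 11.0 FPKM in SSC, 35.7, 34.2 and 50.4 in SSCiPSC and 31.4, 40.6 and 40.8 in fiPSC. The lowest iPSC library was well above the highest SSC library. The log2 difference of 2.52 ± 0.40 (SE) for SSCiPSC against SSC (limma adjusted p = 0.00236) and of 2.44 ± 0.38 for fiPSC against SSC (adjusted p = 0.00251) was the largest among the cluster genes that rose. The locus before it, chr12:109707954-109720938, which encloses 16 hairpins, that of miR-379 among them, was at 0.818, 0.505 and 1.72 FPKM in SSC, 7.38, 6.79 and 10.2 in SSCiPSC and 7.46, 10.1 and 11.2 in fiPSC. It showed the highest ratio of the plus strand, 8.01-fold in SSCiPSC (adjusted p = 0.00175) and 9.48-fold in fiPSC (adjusted p = 0.00102), or 12.3-fold and 14.5-fold without SSC replicate 3.

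**Figure D1:**
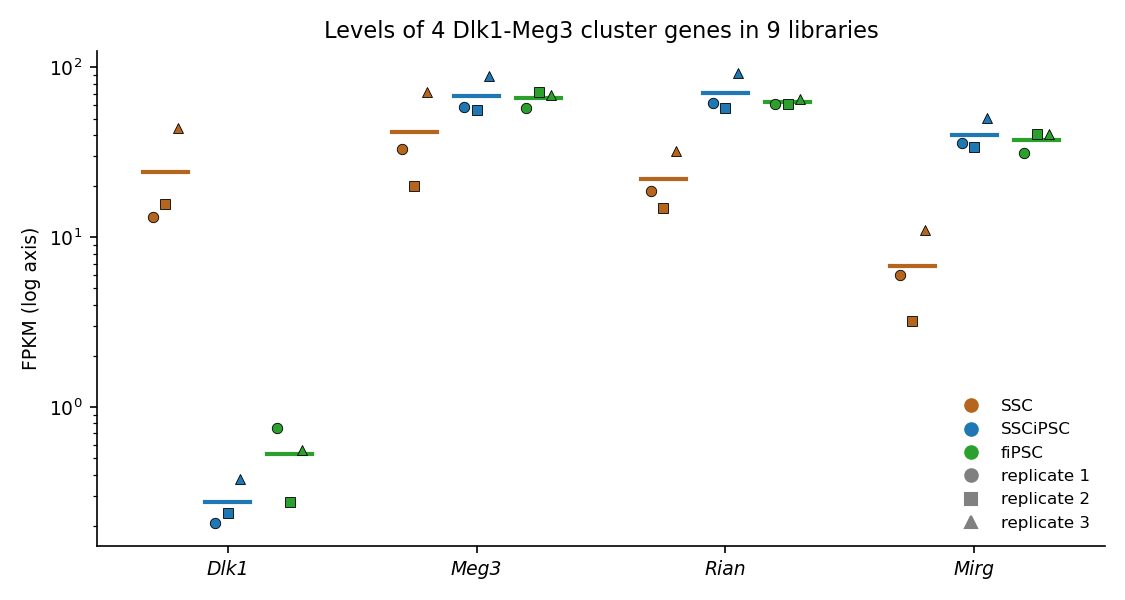
Levels of Dlk1, Meg3, Rian and Mirg as FPKM on a log axis, with a point per library (symbol by replicate, colour by group) and a bar at the group mean. Dlk1 runs from 13.2 to 43.8 in SSC and is at most 0.748 in any iPSC library, whereas Rian and Mirg are higher in all iPSC than in all SSC libraries and Meg3 overlaps.

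The outer genes of the domain were low. Begain, a brain-enriched guanylate kinase-associated protein gene on the minus strand, had no locus that met the rule, since its minus-strand locus covered 48.9% of the gene. That locus, chr12:109035330-109052933, had 6.27, 1.80 and 0 FPKM in SSC, between 0.356 and 0.873 in SSCiPSC and between 0.311 and 0.413 in fiPSC, and was not tested. The SSC values straddled those of the iPSC. A short locus without strand near the 3′ end of Begain, chr12:109032255-109033385, had 2.91, 3.78 and 5.21 FPKM in SSC, 0.910, 0.819 and 0.473 in SSCiPSC and 1.24, 0.582 and 0.40 in fiPSC. All SSC values lay above all iPSC values, but they rested on 5, 17 and 7 fragments, and for SSCiPSC against SSC the locus passed the filter through SSC libraries alone. Dio3, the deiodinase that inactivates thyroid hormone, had 0, 0.961 and 0.401 FPKM in SSC, 0.176, 0.323 and 0.184 in SSCiPSC and 0.125, 0.126 and 0.468 in fiPSC. These correspond to 0, 8 and 1 fragments in SSC and to between 3 and 13 in the iPSC libraries, so Dio3 was too low to test and no difference was detectable at this depth. Its locus has no strand, so sense and antisense fragments cannot be told apart.

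Rtl1, a retrotransposon-derived gene needed in placenta and muscle, lies on the minus strand at chr12:109589193-109600330 and is overlapped by a maternal antisense transcript that holds microRNAs. No minus-strand locus was found there, and 3 loci without strand of their own interval overlapped it, which cannot be assigned to Rtl1 or to the antisense RNA. The locus at chr12:109594240-109595154, which encloses the miR-434 and miR-432 hairpins, was listed at 0 in all SSC libraries and at 5.34, 5.44 and 10.0 FPKM in SSCiPSC and 5.16, 6.13 and 7.37 in fiPSC. The iPSC values came from 52 to 116 fragments per library, against none in SSC. With a floor of 3 fragments over the SSC libraries together, which equals 0.51 FPKM, it was at least 13.6-fold higher in SSCiPSC and at least 12.2-fold higher in fiPSC, where the floor covers counting error only. It passed the filter on low values through the iPSC libraries alone, so no p is given. The locus at chr12:109595396-109599541 had 0.994, 0.543 and 1.27 FPKM in SSC, 6.77, 6.07 and 9.11 in SSCiPSC and 7.52, 7.89 and 7.09 in fiPSC. It too was apart between SSC and iPSC (adjusted p = 0.00127 and 0.000605). The third, chr12:109585594-109591103, with 7 hairpins including miR-337 and miR-431, had 0.212, 0.283 and 0.811 FPKM in SSC (2, 7 and 6 fragments), 1.87, 1.98 and 2.37 in SSCiPSC and 1.76, 2.35 and 2.55 in fiPSC. It too passed the filter through the iPSC libraries alone, so no p is given.

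Over the window from Dlk1 to Mirg, 53 of the 70 loci passed the filter on low values for SSCiPSC against SSC (3 or more of the 6 libraries reaching 1 FPKM). Of these, 41 were higher in SSCiPSC (77.4%, against 26.2% of all 36544 loci tested) and 1, Dlk1, was lower (1.89%, against 24.1% of all loci). Their median log2 difference was 1.61, beside 0.11 over all loci. The filter favours this direction for loci that were low in SSC, and 13 of the 53 passed through SSCiPSC libraries alone. With no filter, so that all 70 loci entered, 43 were higher and 1 was lower, where 20.6% of all 54313 loci were higher and 17.1% lower. In 48 of the 70 all SSCiPSC libraries lay above all SSC libraries, as in 26.7% of all 54913 loci. The number past the threshold fell from 42 to 24 without SSCiPSC replicate 3. Over all 36544 loci tested it was 18396, and between 14477 and 18577 with a library left out. For fiPSC against SSC, 56 loci were tested, of which 45 were higher (80.4%, against 28% of 38007 loci) and 1 lower (1.79%, against 23.7%), with a median of 1.70 beside 0.17, and 15 of the 56 passed the filter through fiPSC libraries alone. With no filter, 47 of the 70 were higher and 1 was lower, where 23.2% and 17.4% of all 54586 loci were. All fiPSC lay above all SSC libraries in 50 of the 70, as in 29.3% of all loci. These loci come from few transcription units and are not independent of each other.

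The loci without strand lay within the intervals of plus-strand loci (35) or between them (22). Summed over the 57, they reached 55.4, 29.7 and 71.9 FPKM in the SSC replicates, 256, 201 and 338 in SSCiPSC, and 249, 289 and 245 in fiPSC. All SSC sums were below all iPSC sums. In the SSC libraries 31, 23 and 29 of the 57 were listed at 0, against at most 2 in any iPSC library, a count that also moves with the depth. Of all loci, 30.0%, 18.9% and 35.4% were at 0 in SSC replicates 1, 2 and 3, and 9.6% to 13.9% in the iPSC libraries. Among the loci without strand of 1 interval, chr12:109599819-109646510 (the Rian interval), 4 were among the 10 most abundant loci of the window. The first of these had 3.81, 2.04 and 6.82 FPKM in SSC, 12.8, 11.8 and 17.9 in SSCiPSC and 15.6, 16.2 and 15.8 in fiPSC, with no overlap (adjusted p = 0.0119 and 0.00574). The second had 4.62, 3.53 and 2.96 FPKM in SSC, 16.9, 13.6 and 19.6 in SSCiPSC and 11.5, 14.1 and 8.20 in fiPSC, likewise apart (adjusted p = 0.00086 and 0.00493). Unlike these, the third was listed at 0 in SSC replicates 1 and 2 and had 7.21 FPKM in replicate 3, above the 4.73 of SSCiPSC replicate 2, and it passed only for fiPSC (adjusted p = 0.0573 and 0.0269). The fourth ranged from 0.88 to 8.05 FPKM in SSC and from 8.04 to 16.5 in SSCiPSC and passed in neither comparison (adjusted p = 0.119 and 0.0895).

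Along the plus strand the difference was larger at Rian and most loci past it than at Meg3. At the 10 plus-strand loci from Meg3 to Mirg, with centres from 1.6 to 194.4 kb past the start of Meg3, the ratio of SSCiPSC to SSC mean FPKM was 1.55 and 1.63 at the Meg3 loci, 2.71 at a low locus at 34.3 kb, 3.22 at Rian, 4.43, 6.14 and 5.28 at the following 3 loci, 2.27 at B830012L14Rik, 8.01 before Mirg and 5.96 at Mirg. The order thus did not follow the distance throughout, since the ratio fell back at 142.9 kb, at B830012L14Rik (156.2 kb) and at Mirg. B830012L14Rik, a noncoding gene that was under 2 FPKM in all but 1 library, had a ratio of 5.31 without SSC replicate 3 and 1.51 without SSC replicate 1, and Meg3 had 2.55 without SSC replicate 3. Of the 10 loci, 7 were called higher in SSCiPSC and 7 in fiPSC, where 26.2% and 28% of all loci tested were. Across these 10 loci, which share libraries and transcription units, the log2 difference of FPKM + 1, not the ratio above, was set against the distance. Its Pearson correlation with the distance was 0.73 for SSCiPSC against SSC and 0.79 for fiPSC against SSC, given as descriptions (0.65 to 0.81 and 0.71 to 0.86 with a library left out). For fiPSC against SSCiPSC it was 0.05.

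**Figure D2:**
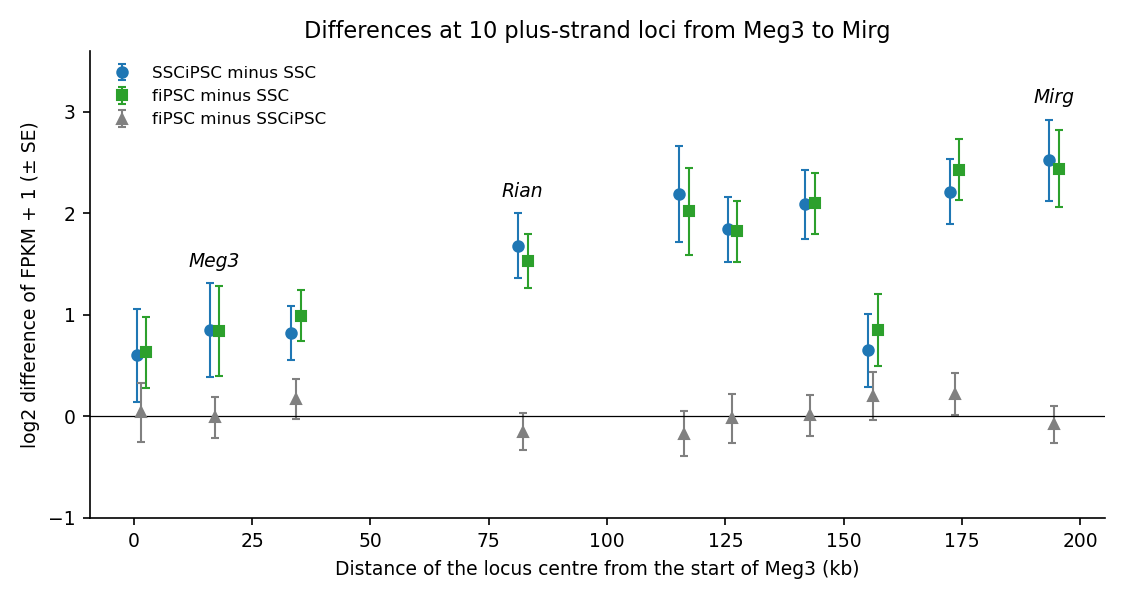
Log2 difference of FPKM + 1 (± SE) at the 10 plus-strand loci, against the distance of the locus centre from the start of Meg3 in kb. Set against SSC, SSCiPSC and fiPSC lie at 0.60 and 0.63 at the first locus and at 2.52 and 2.44 at Mirg, while the grey points of fiPSC minus SSCiPSC stay between -0.17 and 0.22.

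Ratios within a library do not depend on a scaling factor, and they were computed after the pattern had been seen. The ratio of Mirg to Meg3 was 0.180, 0.160 and 0.153 in SSC replicates 1, 2 and 3, 0.612, 0.607 and 0.564 in SSCiPSC and 0.547, 0.565 and 0.590 in fiPSC. Within SSC it stayed in this range, although Meg3 itself ranged from 20.0 to 71.9 FPKM there, and it was 3.62-fold higher in SSCiPSC and 3.46-fold higher in fiPSC without overlap (exact permutation test, two-sided, p = 0.1 for each, the smallest that 3 against 3 allow). The ratio of Rian to Meg3 was 0.564, 0.743 and 0.450 in SSC, 1.06, 1.03 and 1.03 in SSCiPSC and 1.07, 0.849 and 0.936 in fiPSC, also without overlap. For Dlk1 to Meg3 the ratio was 0.397, 0.780 and 0.609 in SSC, 0.00354, 0.00422 and 0.00423 in SSCiPSC and 0.0130, 0.00384 and 0.00808 in fiPSC. In SSC the order of the mean levels was thus Meg3 (41.7 ± 27.0 FPKM, SD, n = 3), Dlk1 (24.2 ± 17.0), Rian (22.0 ± 9.17) and Mirg (6.73 ± 3.97), where Dlk1 and Rian lay within each other's spread. In SSCiPSC it was Rian (70.7 ± 18.9), Meg3 (68.0 ± 18.6), Mirg (40.1 ± 8.97) and Dlk1 (0.274 ± 0.0917), with Rian and Meg3 within each other's spread, and in fiPSC Meg3 (66.2 ± 7.75), Rian (62.3 ± 2.12), Mirg (37.6 ± 5.39) and Dlk1 (0.528 ± 0.238), again with Meg3 and Rian alike within the spread.

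**Figure D3:**
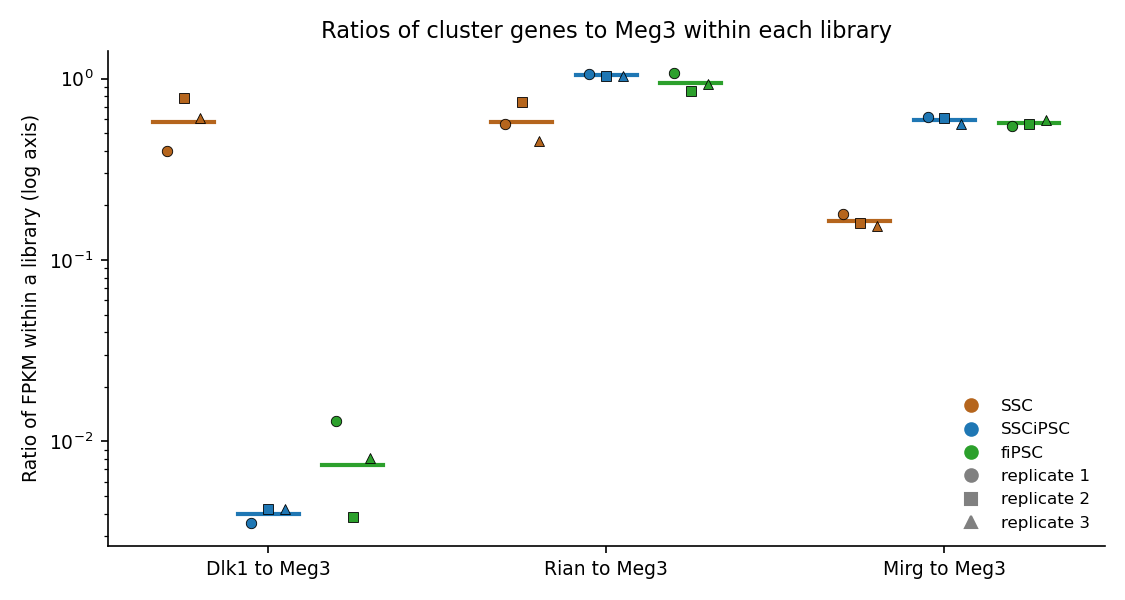
FPKM of Dlk1, Rian and Mirg divided by that of Meg3 in the same library, on a log axis, with a point per library and a bar at the geometric mean of the group. For Mirg the SSC points sit between 0.153 and 0.18 and all iPSC points between 0.547 and 0.612, and for Dlk1 the iPSC points sit at or under 0.013.

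The comparison of fiPSC with SSCiPSC asks whether the cell of origin left a difference in the cluster. Of 57 loci tested in the window, none passed in limma (5 at an unadjusted p under 0.05), where 0.0678% of all 33948 loci tested did (23 loci), and their median log2 difference was 0.03. The log2 difference was -0.01 for Meg3 (95% interval -0.47 to 0.45, adjusted p = 0.988), -0.15 for Rian (-0.57 to 0.28, adjusted p = 0.798) and -0.08 for Mirg (-0.51 to 0.35, adjusted p = 0.908). The libraries therefore do not settle differences smaller than these intervals, and the small signs turned with the scaling or with a library left out. The values overlapped for all of these genes. All fiPSC libraries lay above all SSCiPSC libraries at 5 of the 70 loci and below them at 2, where 9.82% and 6.46% of all loci did.

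Within SSC and within SSCiPSC the same library was the highest at all 10 plus-strand loci from Meg3 to Mirg, but not within fiPSC. SSC replicate 3 was the highest SSC library at all 10 plus-strand loci from Meg3 to Mirg and at Dlk1, and SSC replicate 2 the lowest at 9 of the 10. Among SSCiPSC, replicate 3 was the highest at 10 and replicate 2 the lowest at 9. Among fiPSC, replicate 1 was the lowest at 7, and the highest value was in replicate 3 at 5 loci, in replicate 2 at 4 and in replicate 1 at 1. At the 57 loci without strand, SSC replicates 1, 2 and 3 were the highest of their group at 12, 9 and 23 loci. SSCiPSC replicates 1, 2 and 3 were so at 7, 5 and 45, and fiPSC replicates 1, 2 and 3 at 7, 36 and 14. Summed over the 10 plus-strand loci, the cluster had 81.7, 50.9 and 159 FPKM in SSC, 250, 219 and 364 in SSCiPSC and 236, 273 and 266 in fiPSC.

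Markers of other testis cells were present in SSC beside those of the germ line. Germ line markers (11 of 12 with a locus, Dazl the most abundant) had summed levels of 642, 805 and 528 FPKM in the SSC libraries (replicates 1 to 3), and Gfra1 itself stood at 37.7, 34.1 and 23.9. Sertoli markers (7 of 11, Clu the most abundant) summed to 1019, 1011 and 837, and Leydig markers (4 of 8, Cyp11a1 the most abundant) to 171, 154 and 269. Fibroblast markers (9 of 9, Col3a1 the most abundant) reached 105, 93.8 and 298, and macrophage and mast cell markers (9 of 9, Tpsab1 the most abundant) 131, 268 and 866. Replicate 3, where Dlk1 was highest, thus also had the highest Leydig, fibroblast and macrophage and mast cell sums and the lowest germ line sum. However, its Sertoli and peritubular myoid sums were the lowest of the SSC libraries, and its endothelial sum was not the highest. Replicate 2, the lowest at most plus-strand loci from Meg3 to Mirg, had the highest germ line sum. Endothelial markers (6 of 6, Pecam1 the most abundant) had 116, 57.0 and 97.4, and peritubular myoid markers (4 of 6, Acta2 the most abundant) 85.8, 76.9 and 70.2. None of these genes was at 0 in SSC except Thy1 in replicate 1, a fibroblast marker, and their part in the cluster's levels was not tested. In such bulk RNA, fewer cells of a type and less RNA per cell cannot be told apart.

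Against SSC, SSCiPSC had 7 of 11 tested germ line genes lower and 3 higher (median log2 difference -2.05), beside 26.2% higher and 24.1% lower of all loci tested, which holds for each list here. The most abundant were Dazl (-2.43), Mael (-2.74), Lin28a (1.14) and Sall4 (1.26), of which the last pair lost their call under quantile normalization. The 4 Leydig genes with a locus were lower (-5.04), which were the steroid enzymes Cyp11a1 (-6.44), Cyp17a1 (-5.80) and Hsd17b3 (-4.28) and the receptor Lhcgr (-3.39). Of 7 Sertoli genes 6 were lower and 1 higher (-4.93), with Clu at -6.96, Cst12 at -7.81, Wt1 at -4.97 and the higher gene, Rhox5, at 6.66. Of 4 peritubular myoid genes 2 were lower (-1.94), namely Acta2 (-3.63) and Myh11 (-3.50), while Des (0.72) and Cnn1 (-0.38) did not pass. Of 6 endothelial genes 3 were lower and 1 higher (-1.51), including Cdh5 (-4.36) and Kdr (-3.64), with Tek (-1.11) not past the threshold and Pecam1 higher (1.29) except under quantile normalization. Of 9 macrophage and mast cell genes 7 were lower and 1 higher (-3.36), with the mast cell proteases Tpsab1 at -7.32 and Cma1 at -6.01, the receptor Kit, which germ and pluripotent cells also express, higher at 2.14, and Cd68 (0.42) not passing. Of 9 fibroblast genes 6 were lower (-1.91), among them Col3a1 (-2.19), Dcn (-2.66), Col1a2 (-1.91) and Col1a1 (-2.08). The 8 pluripotency genes with a locus were higher (5.42), though Klf4 and Lin28a, which is also in the germ line list, not under quantile normalization, and the group was led in abundance by Pou5f1 (5.72), Nanog (8.83), Tdgf1 (8.04) and Esrrb (7.31), and Pou5f1 is also a transgene of these mice. Of these genes, 2 germ line, 4 Leydig, 5 Sertoli, 1 peritubular myoid, 3 endothelial and 7 macrophage and mast cell genes passed the filter through SSC libraries alone and 3 pluripotency genes through SSCiPSC libraries alone, so that they had to be higher there. With no filter, as many genes were higher and as many lower in each of the 8 lists for SSCiPSC against SSC.

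In the iPSC the pluripotency markers (8 of 12 with a locus, Pou5f1 the most abundant) summed to between 1621 and 2240 FPKM, against 97.9 to 107 in SSC, where Nanog was at 0 in all libraries. Of the Leydig markers, Lhcgr was at 0 in every iPSC library and the sum did not exceed 0.742. The Sertoli marker Cst12 was at 0 throughout the iPSC, and most of the Sertoli sum there (170 to 303) was Rhox5, which iPSC also express. Tpsab1 was likewise at 0. Fibroblast markers, which feeder cells share, summed to 32.3, 22.9 and 46.0 in SSCiPSC, in the order of the cluster's own levels there, and to 37.2, 13.1 and 44.9 in fiPSC, where they did not follow that order, and their part was not tested.

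The genes around the domain differed in both directions. Of 10 genes flanking the cluster, 9 were tested for SSCiPSC against SSC and 4 rose and 4 fell (median log2 difference 0.53), where 26.2% of all loci rose and 24.1% fell, and for fiPSC against SSC the counts were also 4 and 4 of 9 (0.35), whereas median-ratio scaling gave 5 higher and 3 lower in both comparisons and no filter gave 4 and 3 (SSCiPSC) and 3 and 3 (fiPSC) of 10. The most abundant were the chaperone gene Hsp90aa1, up 2.94 on the log2 scale (adjusted p = 0.000158), the phosphatase subunit Ppp2r5c, up 2.03 (adjusted p = 0.000162), the dynein heavy chain Dync1h1, down at -0.64 (adjusted p = 0.016, not called under median-ratio scaling), and the tryptophanyl-tRNA synthetase Wars, up 1.55 (adjusted p = 0.00256).

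Of genes whose proteins protect, write or remove methylation marks, such as the control region carries, most had more RNA in the iPSC. Of 14 genes, 11 were tested for SSCiPSC against SSC, 8 rose and 2 fell (median 2.31, beside 26.2% and 24.1% of all loci), and 9 rose and 2 fell in fiPSC against SSC (2.08), the same counts as with no filter. Trim28, the corepressor that binds Zfp57, rose by 2.36 (adjusted p = 0.000963), the maintenance methyltransferase Dnmt1 by 1.03 (adjusted p = 0.00295, not called under quantile normalization), its recruiter Uhrf1 by 2.31 (adjusted p = 0.000262) and the methylcytosine dioxygenase Tet1 by 6.40 (adjusted p = 7.57e-06) on the log2 scale. Zfp57, named after its values were seen, had 9.27, 9.31 and 7.36 FPKM in SSC and 154 to 254 in SSCiPSC (adjusted p = 6.55e-05). Tet3 (log2 difference -3.74) and Aff3 (-3.17), named because they fell, were the lower genes in SSCiPSC. For SSCiPSC against SSC, Tet3 passed the filter through SSC libraries alone. In each comparison with SSC, 1 of the 11 genes passed it through iPSC libraries alone, so that it had to be higher there. Polycomb repressive complex 2, which deposits repressive histone methylation, had 6 of 7 tested genes higher in each comparison with SSC and none lower (medians 1.75 and 1.44), where 26.2% and 28% of all loci were higher. They included Eed (log2 difference 1.97, adjusted p = 0.000564), Mtf2 (1.75, adjusted p = 0.000539), Suz12 (1.94, adjusted p = 0.000183) and the catalytic subunit Ezh2 (2.82, adjusted p = 0.000206).

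The Notch pathway, to whose ligands Dlk1 is related, had 10 of 15 tested genes lower and 2 higher in SSCiPSC than in SSC (median -1.12), and 10 lower and 3 higher in fiPSC than in SSC (-1.09), where 24.1% and 23.7% of all loci were lower and 26.2% and 28% higher. Of the 15, 3 passed the filter through SSC libraries alone, and with no filter 10 of 17 were lower and 2 higher in both comparisons. The ligand Jag1 fell by 2.30 (adjusted p = 0.000198), the coactivator Maml1 by 1.36 (adjusted p = 0.00125) and the protease Adam17 by 0.65 (adjusted p = 0.0262, not called under median-ratio scaling) on the log2 scale in SSCiPSC. The target Hes1 had a difference of -0.36 that did not pass in SSCiPSC (adjusted p = 0.179) and one of -0.68 that passed in fiPSC (adjusted p = 0.0264, not called under median-ratio scaling), while fiPSC against SSCiPSC gave -0.32 (adjusted p = 0.354). Genes of thyroid hormone handling, the process in which Dio3 acts, fell in 4 of 5 tested and rose in 1 in each comparison with SSC (medians -1.94 and -1.68), beside the same shares of all loci. The transporter Slc16a10 (log2 difference -3.51 for SSCiPSC) and 1 other of the 5 passed the filter through SSC libraries alone, and with no filter 4 of 6 were lower and 2 higher in SSCiPSC. The receptor Thra (-1.94, adjusted p = 0.000669) and the coactivator Ncoa1 (-1.06, adjusted p = 0.0148) were lower in SSCiPSC and the corepressor Ncor1 was higher (0.74, adjusted p = 0.00666), a call lost under quantile normalization, which turned its sign for fiPSC against SSC. Among other imprinted domains with a paternal methylation mark, 1 of 4 genes, H19, had a locus. H19 had 70.6, 61.9 and 111 FPKM in SSC, 8.01, 5.53 and 9.04 in SSCiPSC and 16.6, 6.66 and 15.6 in fiPSC, lower in both iPSC types (adjusted p = 0.000262 and 0.00192), whereas Rian and Mirg, also maternally expressed, were higher in both. Between fiPSC and SSCiPSC none of the tested genes of these lists passed, where only 0.0678% of all loci tested did.

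**Figure D4:**
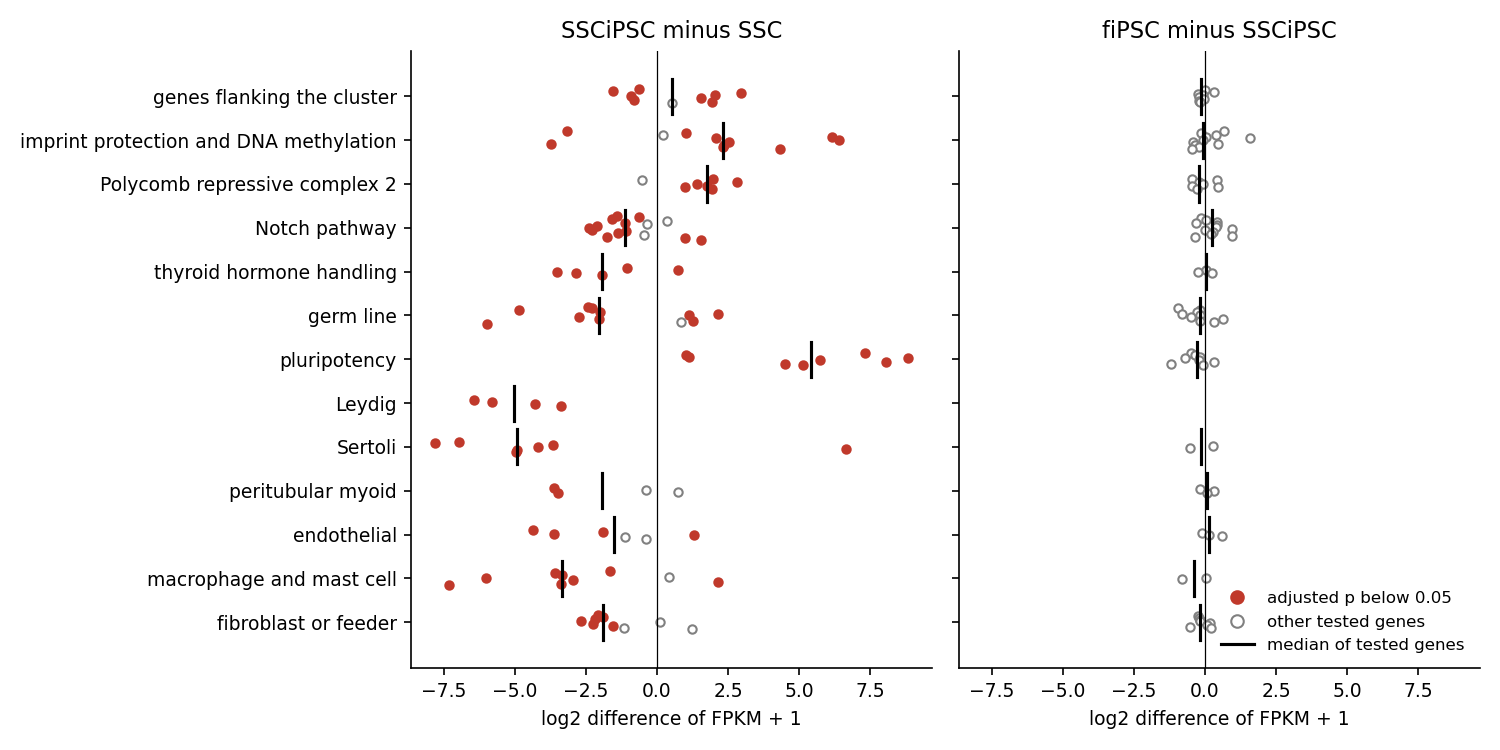
Log2 difference of FPKM + 1 for each tested gene of 13 lists, SSCiPSC minus SSC on the left and fiPSC minus SSCiPSC on the right, with red points for an adjusted p below 0.05 and a bar at the median of the list. Pluripotency genes lie on the right and Leydig genes on the left of 0 in the first panel. No point is red in the second, where only 0.0678% of all loci tested passed.

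The genes most like Dlk1 over the 9 libraries, among 7481 named genes with a mean of at least 5 FPKM, were Cdon, a cell surface receptor of the Hedgehog pathway, Inhba, an activin and inhibin subunit, Ren1, the renin gene, Tnfaip3 and Peak1, with Pearson correlations of log2(FPKM + 1) from 0.994 to 0.997. All of them were high in SSC, highest in replicate 3, and lower in the iPSC. Ren1, for example, had 11.8, 12.5 and 46.0 FPKM in SSC and at most 0.0912 in iPSC. For Meg3 they were Ehbp1, Slc48a1, Net1, Gm45246 and Ice1, from 0.932 to 0.948. These had their lowest value in SSC replicate 2, as Meg3 did. All points share the same 9 libraries and the same split between SSC and iPSC. Both sets were chosen for this likeness, so their shared patterns are not separate results.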

How the data were processed

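The authors analysed paired end reads with TopHat and Cufflinks and deposited 1 FPKM value per locus and library. The submitters' processing notes name Trimmomatic 0.32, Bowtie2 2.1.0, TopHat2 2.0.9, Cufflinks 2.2.1 and Cuffdiff without their settings. The labels name a ribosomal RNA depletion and a TruSeq Stranded mRNA kit, and the study's methods name that mRNA kit. The notes name the build mm9, but 92.8% of stranded loci overlapped a same-strand protein-coding gene of GRCm38, against 38.3% and 37.9% after moving them 1000000 bp up or down, so GRCm38 was used. Of 54914 loci, 1 with a blank value was left out. The table has no strand column, and the strand was read from its blocks of sorted loci. A locus took a gene's name where at least 50% of each was shared (11694 genes). Fragment totals were recovered from loci of 600 to 6000 bp, where low values were whole multiples of 1 fragment within 0.01.

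Groups were compared with limma 3.58.1 in R 4.3.3 (eBayes with a trend, 6 libraries) on log2(FPKM + 1), for loci that reached 1 FPKM in 3 libraries or more, with Benjamini-Hochberg adjustment over all loci tested and a threshold of 0.05. FPKM are not counts, so no count model was used. The test was checked on simulated data, and no result given here rests on that check. Single values were compared by exact permutation in scipy 1.17.1. The members, gene lists and tests were chosen with earlier results of these data known. The text names the 7 genes, the 10 most abundant loci of the window, the 4 most abundant genes of each list (flanks, imprint protection and DNA methylation, Polycomb repressive complex 2, Notch, thyroid hormone handling, other paternally methylated domains and 8 cell type marker lists) and the 5 genes most like Dlk1 and Meg3. The study calls the 9 libraries biological samples, and the labels do not say from which lines or animals each came, so p-values measure the spread between these samples, which may be partly technical. Promoter and microRNA sequences are RefSeq's (GRCm38.p6).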

Additional observations from a re-analysis of the deposited data

How the results depend on the processing

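For both comparisons with SSC, Dlk1 stayed lower and Rian and Mirg higher and past the threshold under all 14 alternatives per comparison (pseudocount 0.1, no filter, a mean of at least 5 FPKM, median-ratio and quantile scaling, no trend, all 9 libraries, the replicate block, each library left out), with adjusted p up to 0.0246. The median log2 difference of all loci shifted by 0.18 in both comparisons under median-ratio scaling, and by -0.13 under quantile normalization for fiPSC against SSC. Meg3 passed for SSCiPSC against SSC with the replicate block (0.85, adjusted p = 0.0478) and without SSC replicate 3, and its range with a library left out was 0.43 to 1.33 there and 0.42 to 1.32 for fiPSC against SSC. Same-numbered libraries correlated between -0.24 and 0.03 in their deviations, so the numbers were not taken as pairs, and the block changed no other call of a cluster gene. With a mean of at least 5 FPKM, fewer loci were tested, and 15 and 14 loci of the window (SSCiPSC and fiPSC against SSC), 10070 and 10528 of all loci, and 10 for fiPSC against SSCiPSC passed. That last count, 23, was 11 with all 9 libraries in the fit, 6 with the replicate block and 6 to 20 with a library left out (12 without SSCiPSC replicate 2, and 6, 11 and 7 without fiPSC replicates 1, 2 and 3). With a library left out, the window count ran from 24 to 43 of 53 loci tested for SSCiPSC against SSC. For fiPSC against SSC it ran from 31 to 50 of 56. The counts over all loci ran from 14477 to 18577 of 36544 and from 15301 to 20731 of 38007. The counts with a mean of at least 5 FPKM are given without the number tested and are not shares. Between fiPSC and SSCiPSC the signs near 0 turned for Meg3 (0.09) and Mirg (0.01) under quantile normalization, and with a library left out the ranges were -0.13 to 0.20 for Meg3, -0.27 to 0.06 for Rian and -0.18 to 0.09 for Mirg. Requiring 80% overlap left 2 cluster genes with a locus. With the first Meg3 locus in its place, an alternative added after seeing the data, the log2 ratio of Mirg to Meg3 was 2.06, -0.13 and 1.94 instead of 1.86, -0.07 and 1.79. The ratios of mean FPKM with a library left out were likewise added after seeing the data. The causes were not tested. Depth limits Begain, Dio3 and the short loci most, since 1 fragment per kb equals 0.566, 0.217 and 0.723 FPKM in SSC replicates 1, 2 and 3.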
